A study of Mus musculus with 2 samples.

Results

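The regions described here are 618 peaks of a GFP antibody that overlapped a peak of a SRCAP antibody and lay at CpG-poor promoters of protein-coding genes. Both peak lists came from CUT&RUN, a method in which an antibody guides a nuclease that releases the DNA near its target protein. The cells were SYAT mouse embryonic stem cells (mESCs), 1 engineered CGR8 line in which both Srcap alleles carry YPet-AID, a yellow fluorescent protein joined to an auxin-inducible degron, and in which the receptor OsTir1 is expressed. Both libraries came from this line, which the growth protocol moves to serum LIF medium before experiments and keeps with auxinole to hold back basal loss of the tagged protein. The labels give no treatment for either library. YPet is recognised by the GFP antibody (ab290), whereas ESL-103 was raised against SRCAP, and each was used in 1 library. A member had its midpoint between positions -1000 and 500 bp relative to a transcription start site (TSS) of a protein-coding transcript. The 500 bp at its midpoint had an observed over expected CpG ratio under 0.4, and no protein-coding gene of the opposite strand had a promoter window there. The lists hold 28718 GFP and 28167 SRCAP peaks, 56885 in all, and 16138 GFP peaks were shared by an overlap of at least 1 bp. The 618 members were nearest to the TSSs of 599 genes. They were set against 3783 shared peaks at CpG-rich promoters chosen by the same rule otherwise, 522 CpG-poor promoter peaks found with the GFP antibody alone and 565 shared peaks at promoters with coding genes on both strands.

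SRCAP is the ATPase of a remodelling complex that exchanges histone H2A in nucleosomes for the variant H2A.Z, a mark of the nucleosomes beside active and poised start sites. Most promoters of widely expressed mouse genes lie in CpG islands, stretches in which CpG dinucleotides escaped the loss that methylation causes elsewhere. Promoters outside islands belong more often to genes used in a few tissues, and are where a TATA box is most often found. Zinc finger genes have start sites of both kinds. Some of them form clustered families of KRAB zinc finger genes, whose products bind transposons and recruit the corepressor TRIM28.

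The sequences that carry the main findings are shown first, each 5′ to 3′ on the strand of the gene and read from GRCm38.p6, the build the peak coordinates match. The first group shows the word CCAATCA, a binding word of NF-Y, in capitals in 3 members of high score.
Zfp960 (chr17:17063846-17064085, plus strand, NFY): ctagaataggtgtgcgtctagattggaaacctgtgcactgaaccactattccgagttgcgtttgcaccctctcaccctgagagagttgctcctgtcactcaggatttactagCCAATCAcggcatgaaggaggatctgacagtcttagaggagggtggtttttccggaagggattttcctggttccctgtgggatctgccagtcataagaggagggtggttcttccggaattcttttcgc
Akr1e1 (chr13:4609095-4609334, minus strand, NFY): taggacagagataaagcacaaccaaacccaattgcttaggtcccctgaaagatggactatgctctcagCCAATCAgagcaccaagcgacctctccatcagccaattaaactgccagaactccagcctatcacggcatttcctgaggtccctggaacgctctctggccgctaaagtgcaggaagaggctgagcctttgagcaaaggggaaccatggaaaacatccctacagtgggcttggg
Zfp950 (chr19:61140753-61140992, minus strand, NFY): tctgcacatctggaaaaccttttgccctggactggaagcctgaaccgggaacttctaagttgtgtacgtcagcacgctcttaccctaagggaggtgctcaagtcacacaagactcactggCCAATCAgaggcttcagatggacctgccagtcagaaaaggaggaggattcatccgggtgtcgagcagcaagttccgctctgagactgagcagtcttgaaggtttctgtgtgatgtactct

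The next 4 windows are 2 pairs of near-identical promoters on chromosome 2, with CCAAT words and every CpG in capitals. Gm14443, Gm14410 and Zfp971 were chosen for printing after their values were seen.
Gm14443 (chr2:175175817-175176096, minus strand, NFY,CpG): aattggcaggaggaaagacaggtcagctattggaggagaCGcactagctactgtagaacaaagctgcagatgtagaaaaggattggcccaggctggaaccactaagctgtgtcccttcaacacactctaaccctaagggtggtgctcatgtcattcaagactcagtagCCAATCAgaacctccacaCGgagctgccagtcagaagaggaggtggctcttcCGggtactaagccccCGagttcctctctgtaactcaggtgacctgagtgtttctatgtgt
Zfp972 (chr2:177925650-177925929, minus strand, NFY,CpG): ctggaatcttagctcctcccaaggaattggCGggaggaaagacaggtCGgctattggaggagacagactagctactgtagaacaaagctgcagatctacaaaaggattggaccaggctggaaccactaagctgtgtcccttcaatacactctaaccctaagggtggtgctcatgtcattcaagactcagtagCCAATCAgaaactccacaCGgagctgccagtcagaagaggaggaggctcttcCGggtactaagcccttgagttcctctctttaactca
Gm14410 (chr2:177206400-177206639, minus strand, NFY,CpG): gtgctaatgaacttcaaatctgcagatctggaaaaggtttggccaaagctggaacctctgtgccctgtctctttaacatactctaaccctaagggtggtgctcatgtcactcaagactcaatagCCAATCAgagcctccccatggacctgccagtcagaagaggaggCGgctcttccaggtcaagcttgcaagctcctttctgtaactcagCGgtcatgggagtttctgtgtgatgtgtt
Zfp971 (chr2:178023073-178023312, plus strand, NFY,CpG): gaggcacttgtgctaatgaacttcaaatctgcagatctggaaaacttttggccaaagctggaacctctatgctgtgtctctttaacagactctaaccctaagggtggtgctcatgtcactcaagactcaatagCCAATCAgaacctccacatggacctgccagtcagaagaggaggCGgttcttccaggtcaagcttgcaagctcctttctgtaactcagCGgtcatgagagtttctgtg

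The last group shows members outside these families, with the motif words named in each line, or their reverse complements, in capitals. They show a GC box member of high rank, a member with only CpGs to mark, both POU holders described with the motifs, and the first CTCF, AP-1 and pluripotency examples.
Tomm40l (chr1:171222471-171222770, minus strand, GC box,YY1): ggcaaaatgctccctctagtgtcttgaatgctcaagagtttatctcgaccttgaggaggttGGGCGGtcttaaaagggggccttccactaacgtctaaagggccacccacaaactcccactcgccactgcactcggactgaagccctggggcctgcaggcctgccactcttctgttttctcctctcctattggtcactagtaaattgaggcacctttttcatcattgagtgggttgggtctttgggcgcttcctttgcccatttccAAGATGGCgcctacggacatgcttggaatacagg
Shroom3 (chr5:92925062-92925301, plus strand, CpG): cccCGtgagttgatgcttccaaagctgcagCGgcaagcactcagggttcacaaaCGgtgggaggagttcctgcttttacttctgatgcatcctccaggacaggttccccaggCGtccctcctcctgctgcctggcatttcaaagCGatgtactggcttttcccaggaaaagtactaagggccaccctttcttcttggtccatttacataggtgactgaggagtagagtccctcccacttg
Zfp790 (chr7:29818721-29819020, plus strand, POU,ETS): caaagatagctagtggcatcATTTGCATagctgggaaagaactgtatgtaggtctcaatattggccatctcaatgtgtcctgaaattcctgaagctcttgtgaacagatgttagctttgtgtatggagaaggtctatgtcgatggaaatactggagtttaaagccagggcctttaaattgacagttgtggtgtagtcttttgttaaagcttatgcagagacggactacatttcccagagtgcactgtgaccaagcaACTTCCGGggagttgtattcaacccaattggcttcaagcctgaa
Eif4e1b (chr13:54783245-54783484, plus strand, POU,GATA): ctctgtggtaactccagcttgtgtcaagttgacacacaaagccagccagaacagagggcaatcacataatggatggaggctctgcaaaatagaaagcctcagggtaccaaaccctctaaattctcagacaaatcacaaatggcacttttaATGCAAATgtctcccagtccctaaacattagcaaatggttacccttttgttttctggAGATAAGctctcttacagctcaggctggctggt
Adam5 (chr8:24823772-24824071, minus strand, GC box,CTCF,GATA): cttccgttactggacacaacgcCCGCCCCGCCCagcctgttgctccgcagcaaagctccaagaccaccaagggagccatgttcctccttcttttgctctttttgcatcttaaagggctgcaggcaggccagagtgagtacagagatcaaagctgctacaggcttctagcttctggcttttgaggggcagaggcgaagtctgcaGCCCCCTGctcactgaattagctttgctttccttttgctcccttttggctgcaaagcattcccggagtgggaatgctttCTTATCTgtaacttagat
Jup (chr11:100397980-100398219, minus strand, NFY,AP-1): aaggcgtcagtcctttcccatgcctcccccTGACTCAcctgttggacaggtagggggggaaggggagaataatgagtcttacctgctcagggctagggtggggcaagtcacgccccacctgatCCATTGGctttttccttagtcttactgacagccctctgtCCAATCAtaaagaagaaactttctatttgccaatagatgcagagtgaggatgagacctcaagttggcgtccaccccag
Dppa2 (chr16:48303562-48303841, plus strand, NFY,AP-1): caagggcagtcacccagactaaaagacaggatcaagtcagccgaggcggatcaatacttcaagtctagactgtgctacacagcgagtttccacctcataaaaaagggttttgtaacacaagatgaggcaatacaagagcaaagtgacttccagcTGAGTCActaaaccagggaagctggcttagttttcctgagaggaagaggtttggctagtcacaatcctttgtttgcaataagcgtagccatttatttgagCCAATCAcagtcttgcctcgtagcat

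Members had moderate scores in both lists. The deposited score is a whole number per peak whose meaning was not stated. Its minimum was 13 in both lists. Scores are therefore read as ranks within a list, and a percentile is the percent of the list's peaks with a score at or below a value. The median GFP score of members was 59.0 (95% interval of the median 56.0 to 62.0), with quartiles at 40 and 91.8 and a range from 13 to 670. Shared CpG-rich promoter peaks had a median of 65 (63.0 to 67.0). In the SRCAP list the medians were 60 (56.0 to 62.0) and 68.0 (67.0 to 71.0). Of the members, 146 (23.6%, 95% Wilson interval 20.4 to 27.1) were at or above the 75th percentile of both lists, against 24.9% of all shared peaks and 30.1% of shared CpG-rich promoter peaks. The difference from the CpG-rich group was -6.43 percentage points (95% Newcombe interval -9.94 to -2.64). All intervals cover counting error only. With 1 library per antibody there was no replicate, no test between antibodies was made, and neighbouring or related peaks are not independent.

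Ranked by the smaller of the 2 percentiles, the first member lay at Zfp960, a zinc finger gene on chromosome 17, with a GFP score of 670 and a SRCAP score of 506. Zfp989, another zinc finger gene, had 306 and 518. Tomm40l, a relative of the channel subunit of the mitochondrial import complex, had 339 and 326. These 3 were high with both antibodies. Jup, which encodes the junction protein plakoglobin, had scores of 280 and 333. Akr1e1, an aldo-keto reductase gene, had 258 and 273. Shroom3, a regulator of apical constriction, had 197 and 343 and held none of the motif words searched in its 500 bp. Adam5, a member of the ADAM family known from sperm, had a GFP score of 257. Of the 12 members highest by this rank among genes with a full symbol, the other genes were Ftl1-ps1, Zfp972, Zfp950, Golph3l and Gstm7, with GFP scores from 164 to 464 and SRCAP scores from 196 to 254. Srcap itself had a member 435 bp upstream of its start site, with scores of 81 and 26, which are the percentiles 80.4 and 16.2 of the lists.

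**Figure D1:**
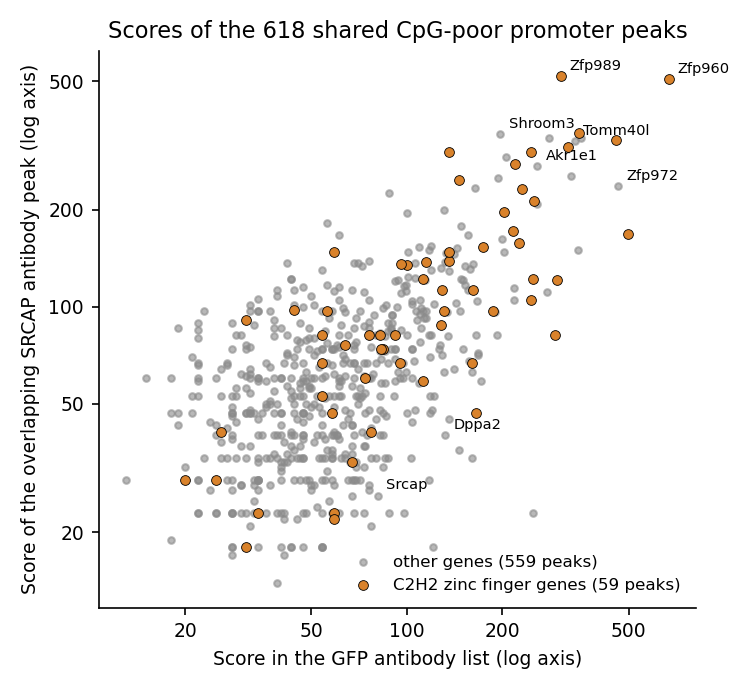
Each point is 1 of the 618 members, with its score in the GFP antibody list (x) against the score of the overlapping SRCAP antibody peak (y), both on log axes. The 59 peaks of C2H2 zinc finger genes (orange) lie mostly toward the upper right, and Dppa2 and Srcap have higher GFP than SRCAP scores.

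Across members the 2 scores rose together, with a Spearman correlation of 0.514 and a Pearson correlation of log2 scores of 0.585 over 618 peaks. This is a description across peaks, which share the 2 libraries and their depth. The same values were 0.551 and 0.595 in shared CpG-rich promoter peaks. The peak pairs overlapped by at least 50% of both peaks in 468 members (75.7%), against 75.6% of all shared peaks. The midpoints of a pair were a median of 54.0 bp apart. The members' GFP peaks had a median width of 355 bp and the SRCAP peaks 305 bp. The GFP percentile was over 25 points above the SRCAP percentile in 107 members (17.3%, and 17.3% of all shared peaks), and the reverse held in 105 (17.0%, against 15.8%). Both shares were near those of shared peaks at large.

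CpG-poor promoter peaks were shared less often than CpG-rich ones. Of 1140 GFP peaks at CpG-poor promoters, 618 overlapped a SRCAP peak (54.2%, 51.3 to 57.1), against 56.2% of all GFP peaks and 72.6% (71.4 to 73.8) of 5210 at CpG-rich promoters. The difference between the promoter classes was -18.4 percentage points (-21.5 to -15.3). Sharing was 49.6% at CpG ratios of 0.2 to 0.3 and 78.8% at 0.8 to 0.9. Below 0.2 it was 58.7% of 63 peaks at 0 to 0.1 and 52.0% of 200 peaks at 0.1 to 0.2, and the intervals of these bins overlapped. The gap was present in each of 4 score bins of the GFP list, divided at its 25th, 50th and 75th percentiles, at 28.7% against 43.6% in the lowest and 89.9% against 94.1% in the highest. In the highest bin the difference was -4.17 points (-8.57 to -0.842). Taken from the SRCAP list, 599 of 962 CpG-poor promoter peaks (62.3%) were shared against 69.7% of CpG-rich ones, a smaller difference of -7.40 points (-10.7 to -4.15).

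**Figure D2:**
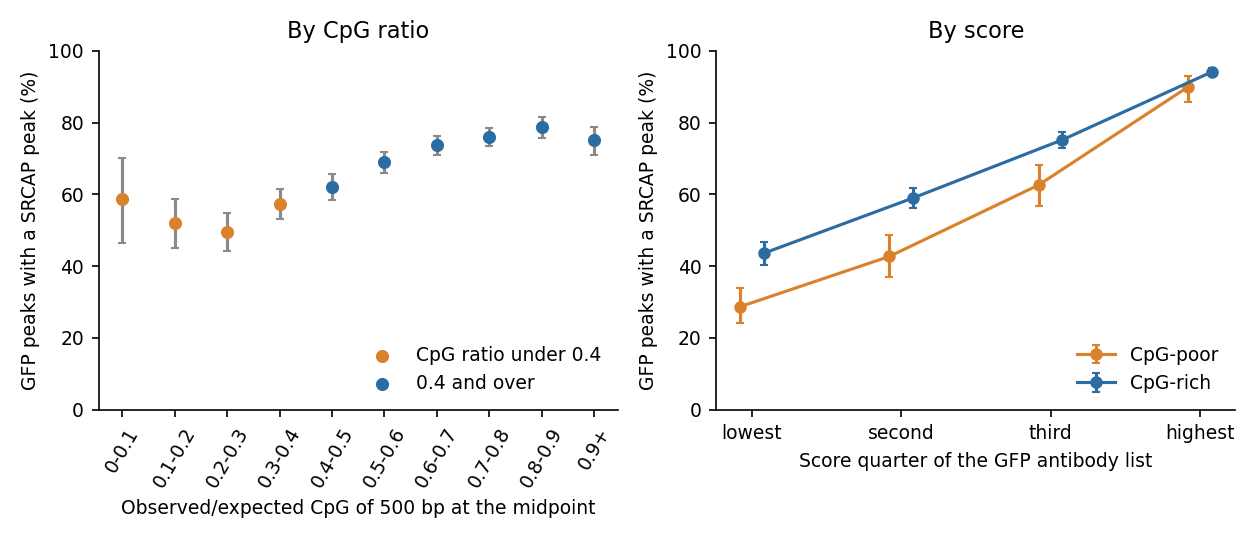
Left, percentage of GFP antibody peaks at one-way coding promoters that overlap a SRCAP antibody peak, by the CpG ratio of the 500 bp at the midpoint. Right, the same percentage by score bin of the GFP list for CpG-poor (orange) and CpG-rich (blue) promoters. Bars are 95% Wilson intervals, and the CpG-poor points lie below the CpG-rich ones in all 4 bins.

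The label of the group was checked at the start sites. The 500 bp at the nearest TSS was CpG-poor too in 374 members (60.5%, 56.6 to 64.3), and in the other 244 (39.5%) only the peak's own window was. Those 244 lay beside a CpG-rich start site, mostly upstream of it, and 68.4% were over 250 bp upstream against 22.5% of the members with a CpG-poor TSS. Their median positions were -358 bp and -65.5 bp. These positions are a description only, since the windows at the peak and at the TSS overlap where the peak is near, and a near peak then falls more easily in the class with a CpG-poor TSS. Cox8a and Slc25a1, a respiratory chain subunit and the mitochondrial citrate carrier, are examples, with TSS ratios of 0.874 and 0.896 and peaks at -330 and -667 bp. At Akr1e1 the ratio was 0.294 at the peak and 0.314 at the TSS. So 244 of the 618 peaks lie in CpG-poor DNA next to a CpG-rich start site and not at a CpG-poor one.

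Members were spread more widely around the TSS than CpG-rich promoter peaks. Their midpoints were upstream in 455 (73.6%) against 75.3%, and the interval of the difference held 0 (-5.52 to 1.94). Within 250 bp of the TSS lay 332 members (53.7%) against 71.7%, a difference of -17.9 points (-22.1 to -13.8). Over 500 bp upstream lay 132 (21.4%) against 5.21%. The rule reads the CpG ratio at the midpoint, so at a CpG-rich TSS a near peak falls more easily in the CpG-rich group. These differences are thus a description only. CpG-poor peaks with the GFP antibody alone lay within 250 bp in 38.7% and over 500 bp upstream in 33.1%. Of the 374 members with a CpG-poor TSS, 71.4% lay within 250 bp, and their difference from CpG-rich peaks held 0 (-0.272 points, -5.26 to 4.31). Over 500 bp upstream lay 12.6% of them (difference 7.36 points, 4.28 to 11.2). As said above, near peaks fall more easily in that class. The 332 members within 250 bp were at or above the 75th percentile of both lists in 30.4%, against 17.5% of the 251 members further upstream (difference 12.9 points, 5.89 to 19.5).

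**Figure D3:**
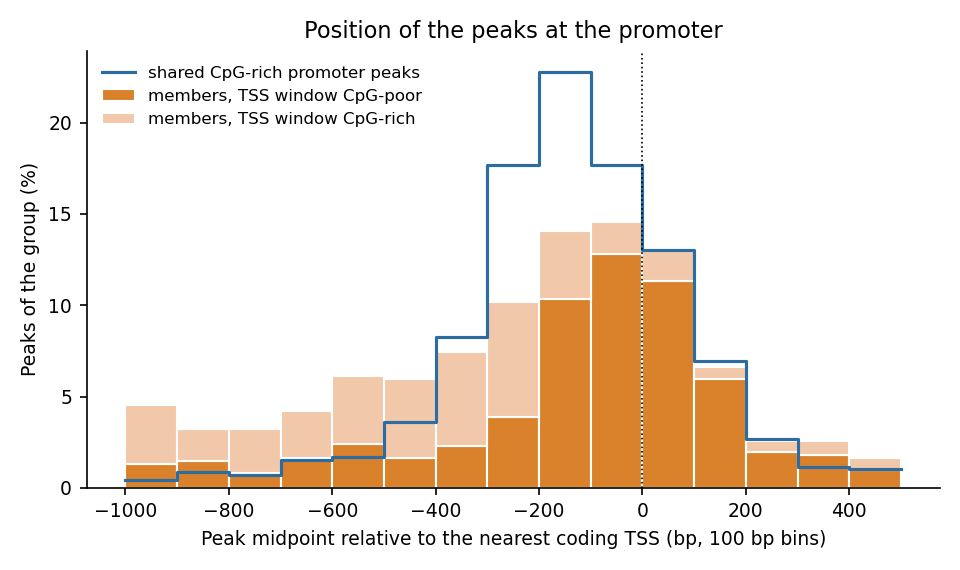
Percentage of peaks per 100 bp bin of distance from the nearest coding TSS (negative is upstream). Stacked bars show the 618 members, split by whether the 500 bp at the TSS is CpG-poor (374) or CpG-rich (244), and the blue line shows the 3783 shared CpG-rich promoter peaks. The far upstream bins are made mostly of members with a CpG-rich TSS.

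Zinc finger genes encode DNA-binding proteins, and their share of members depended on whether near-identical promoters were counted. A gene was counted as a zinc finger gene where a coding transcript held at least 3 C2H2 zinc finger matches in 1 open stretch, a definition chosen after the data were seen. By this count 59 members (9.55%, 7.47 to 12.1) lay at zinc finger genes, against 5.45% of shared CpG-rich promoter peaks (difference 4.10 points, 1.89 to 6.76) and 4.41% of CpG-poor peaks with the GFP antibody alone (difference 5.14, 2.18 to 8.10). Of the 59, 20 were near-identical to another member. Without near-identical members the share was 39 of 597 (6.53%, 4.82 to 8.81), and both differences held 0 (-0.795 to 3.46 and -0.601 to 4.82). With 1 member kept per near-identical family it was 47 of 605 (7.77%), and the differences were 2.32 (0.295 to 4.83) and 3.36 points (0.532 to 6.18). Copies were left out or merged among members only. Seen from the genes, 49 of 338 zinc finger genes with a one-way CpG-poor TSS had a member (14.5%, 11.1 to 18.6) and 397 of 11759 other genes (3.38%, 3.06 to 3.72). That difference was 11.1 points (7.75 to 15.3), and 5.21 points (2.65 to 8.70) with 29 zinc finger genes (8.58%) when near-identical members were left out. At CpG-rich start sites the same difference was 9.41 points (5.19 to 13.8), from 37.7% and 28.3%. Over all genes with a one-way CpG-poor TSS, 446 of 12097 (3.69%) had a member, and 28.7% of 12687 genes with a CpG-rich one had a shared CpG-rich peak.

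Their peaks were also higher and wider. The median GFP score of the 59 zinc finger members was 115 (83.0 to 160) and that of the 559 other members 57.0 (54.0 to 60), while the SRCAP medians were 97.0 (82.0 to 135) and 58.0 (53.0 to 60). The median widths of the GFP peaks were 535 bp and 344 bp. In shared CpG-rich peaks the median GFP score was also higher at zinc finger genes, at 75.0 (66.0 to 83.0) against 64.0 (63.0 to 66.0). The SRCAP medians there were 73.0 and 67.0 and the GFP widths 402 bp and 384 bp, with overlapping intervals in both. A higher GFP median at zinc finger genes was thus not particular to members. Among the CpG-poor peaks found with the GFP antibody alone, zinc finger genes had a median of 32.0 (27.0 to 52.0, 23 peaks) and other genes 34.0 (33.0 to 34.0). Those peaks reached a score of 140 at most, since high-scoring peaks were mostly shared, so a gap among high scores could not show there. Of the 50 members ranked highest by the smaller percentile, 20 were at zinc finger genes, copies included (95% interval 27.6% to 53.8%), against 6.87% of the other 568. Individual zinc finger members ranged from 670 at Zfp960 to 20 in the GFP list.

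Some zinc finger members lay in clusters, and families of these genes are themselves clustered in the genome. How often members clustered was not compared with other groups of genes. There were 12 places with at least 4 members, each no more than 300 kb from its next neighbour. In 6 of them zinc finger genes made up 3 or more of the members. At chr13:67082076-67683745 all 7 members were zinc finger genes (Zfp708, Rsl1, Zfp458, Zfp953, Zfp456, Gm49345 and Zfp738), with GFP scores from 54 to 136 and SRCAP scores from 41 to 139. Chromosome 2 held 3 such places. At chr2:150136385-150485627, 4 of 5 members were zinc finger genes, and the 5 had GFP scores from 96 to 298. At chr2:176707992-177498219, 6 of 7 members were, with scores of up to 323 and 312. Places without zinc finger genes held the Srcap promoter with Ctf1, Orai3 and Hsd3b7 on chromosome 7, and Dlg4, Cd68, Slc2a4 and Slc16a13 on chromosome 11.

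Some zinc finger promoters were near copies of each other. Over the 500 bp at the midpoint, 21 members were at least 80% identical to another member, and 20 of these were at zinc finger genes, 33.9% of those members against 0.179% of the others. The closest family was Gm14305, Gm14410, Gm14418 and Zfp971 on chromosome 2, with identities of 89.4% to 95.4%. Their GFP scores ran from 54 to 225 and their SRCAP scores from 67 to 157. Gm15446 and Zfp932 on chromosome 5 were 92.6% identical, with GFP scores of 247 and 162. Gm14443 and Zfp972 were 86.8% identical, although Zfp972 had no C2H2 match and stands among the 559 other members, and both scored high, at 349 and 464 with the GFP antibody and 345 and 236 with the SRCAP antibody. Zfp990 and Zfp989 were 81.0% identical, with GFP scores of 44 and 306 and SRCAP scores of 98 and 518. Near-identical promoters thus had like scores in some pairs and unlike scores in others. How reads that fit several copies were placed was not stated for CUT&RUN, and its part in these values was not tested. Without the 20 near-identical ones, the 39 zinc finger members left had median scores of 100 (64.0 to 165) and 97.0 (59.0 to 148).

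The CCAAT words seen in the printed windows were common at zinc finger members. The words searched on either strand were CCAATCA and its 3 variants that end in GA, CG or GG, which NF-Y, a trimeric activator of many promoters, binds. They were in 39 of the 59 zinc finger windows of 500 bp (66.1%, 53.4 to 76.9) and in 137 of the 559 other members (24.5%, 21.1 to 28.2), a difference of 41.6 points (28.3 to 52.9). Shared CpG-rich peaks at zinc finger genes had them in 95 of 206 windows (46.1%, 39.4 to 52.9). The gap to these was smaller, with an interval of the difference from 5.55 to 32.6 points. It was not computed without near-identical members. Shared CpG-rich peaks at other genes had them in 37.1% of 3577 windows. CpG-poor zinc finger start sites with no peak of either antibody had them in 23.8% of 471 windows (difference 42.3, 29.0 to 53.7). In zinc finger peaks with the GFP antibody alone it was 5 of 23 (difference 44.4, 20.5 to 60.5), and these peaks had lower scores, as given above, whose part was not tested. Without the near-identical members the share was 22 of 39 (56.4%), still 31.9 points (16 to 46.6) above the other members. At other genes, members were 6.08 points (2.65 to 9.85) above CpG-poor start sites without a peak, and their difference from peaks with the GFP antibody alone held 0 (-2.03 to 8.10).

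A further word, GCCAGTCA, was chosen after it was seen in the printed windows, where it stands downstream of CCAATCA in 6 of the 14 (Zfp960, Zfp950, Gm14443, Zfp972, Gm14410 and Zfp971). On either strand it was in 19 zinc finger members (32.2%), each of which also held a CCAAT word, and in 14 other members (2.50%). The windows in which it was first seen are among those counted, so its share in members is a description and no test. Among all 54365 coding start sites, 2.09% held it and 21.7% held a CCAAT word. CpG-poor zinc finger start sites without a peak held it in 52 of 471, and zinc finger peaks with the GFP antibody alone in 3 of 23. The difference of zinc finger members from the latter held 0 (19.2 points, -2.63 to 34.4). Without near-identical members the word was in 7 of 39 (17.9%), and the difference from zinc finger start sites without a peak then held 0 (-2.60 to 21.8). A word found is a description of the sequence and not a site shown to be bound.

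**Figure D4:**
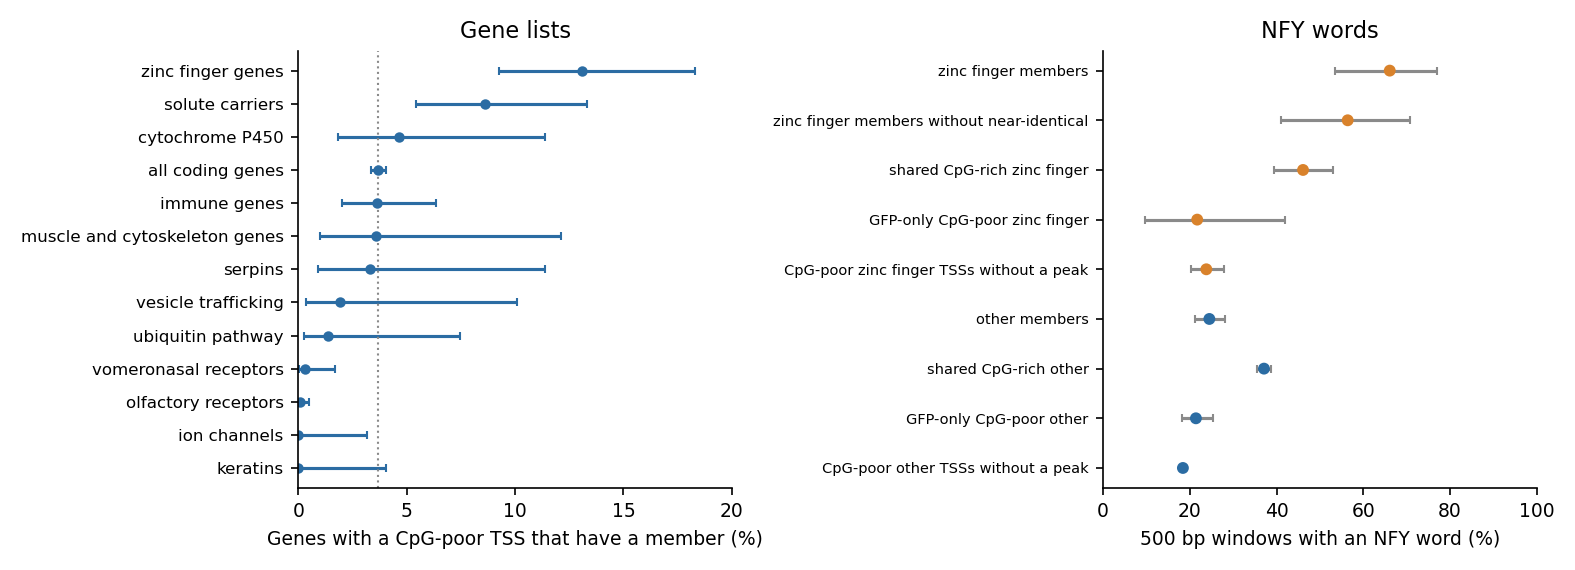
Left, percentage of genes with a one-way CpG-poor TSS that have a member, for each gene list with at least 50 such genes, with the dotted line at all coding genes (3.69%). Right, percentage of 500 bp windows with a CCAAT word of NF-Y at zinc finger genes (orange) and other genes (blue). Bars are 95% Wilson intervals, and the zinc finger list (left) and zinc finger members (right) have the highest shares.

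Across all members, 17 motifs were searched as exact words in the 500 bp at the midpoint, on both strands except for TATA. Besides those spelled out elsewhere, the words were GGGTGTGG for KLF, CCGGAAGT for ETS, GCGCATGC for NRF1, TGACGTCA for CREB, AAGATGGC for YY1, CACGTG for the E-box, CAGGGGGC for CTCF, ACTACAATT for ZNF143, CAAGGTCA for ESRRB, TTCCNGGAA for STAT and GTTGCCAT for RFX factors. Overlapping matches count once per window. Against shared CpG-rich promoter peaks, 5 were more frequent in members by an interval clear of 0, 9 were less frequent and the interval of the other 3 held 0. Against 19890 CpG-poor start sites with no peak of either antibody, 6 were more frequent, 1 was less frequent and 10 held 0. Against CpG-poor peaks with the GFP antibody alone the counts were 3, 1 and 13. Without near-identical members they were 2, 1 and 14, and the interval of the CCAAT difference then held 0 (5.01 points, -0.0191 to 9.96). These are 17 intervals per comparison with no adjustment. Of the 9 less frequent than in CpG-rich peaks, the GC box, ETS, NRF1, CREB and E-box words hold a CpG, which the rule makes rarer in members. Of the CCAAT words 1 holds a CpG, and the other 3 alone were in 27.5% of members and 33.0% of CpG-rich peaks, a difference of -5.51 points (-9.21 to -1.57). YY1, CTCF and ZNF143, whose words hold none, differed by -2.85, -2.69 and -1.13 points.

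Of the words without a CpG, the POU octamer ATGCAAAT, which OCT4 and other POU factors bind, was the 1 that was more frequent in members than in all 3 groups. It was in 37 members (5.99%) against 2.54% of shared CpG-rich peaks, 2.68% of peaks with the GFP antibody alone and 2.53% of CpG-poor start sites without a peak. The differences were 3.45 (1.75 to 5.65), 3.31 (0.911 to 5.72) and 3.45 points (1.82 to 5.62). All coding start sites had it in 1.91%. In 20 of the 37 members (54.1%) the word lay within 100 bp of the midpoint, against 39 of 96 shared CpG-rich peaks with it (40.6%). An interval of this difference was not computed. Holders include Gm45871, Zfp790 and Eif4e1b, an oocyte-type form of the cap-binding factor, with GFP scores of 246, 74 and 61. The CCAAT words were in 28.5% of all members, 37.6% of CpG-rich peaks and 18.6% of CpG-poor start sites without a peak. Their nearest copy lay a median of -89.5 bp from the TSS in members and -85.5 bp in CpG-rich peaks. The AP-1 word TGACTCA was in 68 members and in 5.63% of CpG-rich peaks (difference 5.37, 3.01 to 8.17), but in 9.30% of CpG-poor start sites without a peak. The GATA word AGATAAG was in 6.80% against 3.41% and 6.63%, and both intervals against start sites without a peak held 0.

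In 500 bp windows the TATA word was less common at members than at CpG-poor start sites without a peak. TATAAA on the sense strand was in 7.93% of members, 5.26% of CpG-rich peaks, 11.9% of peaks with the GFP antibody alone and 17.4% of CpG-poor start sites without a peak. The difference from the last was -9.48 points (-11.4 to -7.02), and -10.1 points (-12.0 to -7.74) with members' windows also set at the TSS. In the 374 members with a CpG-poor TSS, TATAAA was in 6.42% of the midpoint windows (difference -11.0 points, -13.1 to -7.99). At its usual place, 45 to 15 bp upstream of the TSS, it was found at 6 of the 374 members with a CpG-poor TSS (1.60%, 0.737 to 3.46) and 3.30% of CpG-poor start sites without a peak, and the interval of the difference held 0 (-2.60 to 0.168). None of the 244 members with a CpG-rich TSS had it there. The GC box GGGCGG, which SP factors bind, was in 30.1% of members, 72.6% of CpG-rich peaks and 11.5% of CpG-poor start sites without a peak. Among all coding start sites, the GC box was in 51.3%, TATAAA in 9.62%, TGACTCA in 6.35% and AGATAAG in 3.97%. The windows also differed in composition, with median GC contents of 51.6% in members and 47.4% at CpG-poor start sites without a peak, and median CpG ratios of 0.301 and 0.191. The part of composition in these differences was not tested.

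**Figure D5:**
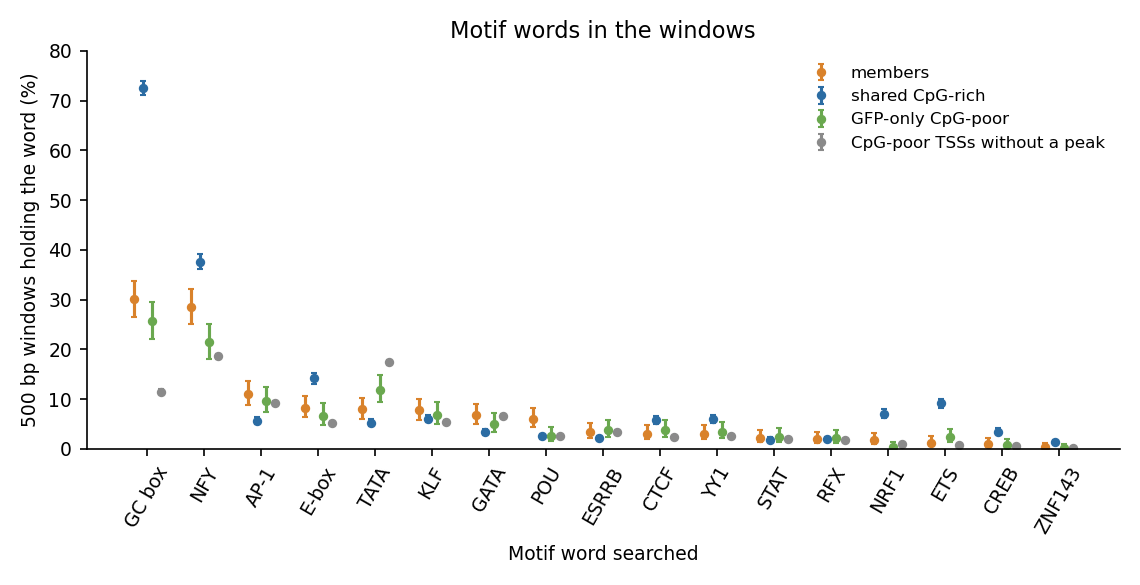
Percentage of 500 bp windows that hold each of the 17 motif words, for members (orange), shared CpG-rich promoter peaks (blue), CpG-poor promoter peaks with the GFP antibody alone (green) and CpG-poor start sites with no peak (grey), with 95% Wilson intervals. The POU octamer is highest in members, TATA is highest at start sites without a peak, and the GC box is highest in CpG-rich peaks.

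The gene lists were compared by how many of their genes with a CpG-poor TSS had a member at any of their start sites, read against 3.69% of all such genes. Genes with symbols of the Zfp, Zscan and Zkscan families had one in 28 of 213 (13.1%, 9.25 to 18.3). Solute carriers had one in 17 of 198 (8.59%, 5.43 to 13.3), led by Slc8a2, a sodium and calcium exchanger, with scores of 156 and 167, and Slc16a13, a monocarboxylate carrier relative, with 150 and 121. Immune genes were near the overall share, at 11 of 305 (3.61%), with Cd46 and Ifitm1 at GFP scores of 79 and 135. Cytochrome P450 genes had one in 4 of 86 (4.65%, 1.82 to 11.4), Cyp2j9 being the highest with 107 and 97. Serpins had one in 2 of 60. Olfactory receptors had 1 in 1142 (0.0876%, 0.0155 to 0.494), at Olfr156, and vomeronasal receptors 1 in 331, at Vmn1r77. None of 117 ion channel genes or 91 keratin genes with a CpG-poor TSS had one, which allows shares of up to 2.56% and 3.30% by the limit of 3 counts and 3.18% and 4.05% by the Wilson upper bound. The bound for keratins thus lies above the share of all genes. Gabrg1, a subunit gene of the GABA-A receptor, had a member beside a CpG-rich TSS, with scores of 22 and 60. Of 22 lists, 15 had at least 1 such gene.

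Genes of the stem cell state gave small counts. Of 19 pluripotency genes with a CpG-poor TSS, 3 had one (15.8%, 5.52 to 37.6). Dppa2, a nuclear protein of pluripotent cells, had scores of 132 and 40 with its peak 206 bp upstream. Fbxo15, a classical reporter gene of pluripotency, had 74 and 54. Rif1, a regulator of replication timing, had 56 and 67 at 533 bp upstream of a CpG-rich TSS. Dppa2 stood at percentile 93.2 of the GFP list and 44.5 of the SRCAP list. None of 26 genes of the 2-cell state with a CpG-poor TSS had a member, which allows up to 11.5% by the limit of 3 counts (Wilson bound 12.9%), and none of 37 germline genes had one, which allows up to 8.11% (Wilson bound 9.41%). Syce2, a synaptonemal complex gene, had a member at a CpG-rich TSS with scores of 34 and 29. Nanog, Meis1 and Trim28 had no member, and the peaks of Zfp42 and Gata3 fell in the CpG-rich class.

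Members also differed from CpG-rich promoter peaks in the annotation around them. The nearest TSS was the most upstream one of its gene in 61.8% of members and 77.4% of CpG-rich peaks (difference -15.6 points, -19.7 to -11.6), and in 50.3% of the members with a CpG-poor TSS. CpG-poor peaks with the GFP antibody alone had 59.6%, and the difference of members from them held 0 (2.23 points, -3.44 to 7.91). A promoter of a noncoding transcript on the opposite strand lay at 5.99% of members and 12.8% of CpG-rich peaks (difference -6.81, -8.76 to -4.42). Repeat-masked sequence made up at least 50% of the peak in 16 members (2.59%), against 0.423% of CpG-rich peaks and 5.56% of CpG-poor peaks with the GFP antibody alone. Of the 599 genes, 52 (8.68%) also had a shared CpG-rich promoter peak and 18 had more than 1 member, such as Etl4 and Gm14401. By chromosome, 64 members lay on chromosome 7, 56 on chromosome 8, 53 on chromosome 2 and 3 on chromosome X. The share on chromosome 8 was 9.06% against 7.48% of CpG-rich peaks, and the interval of the difference held 0 (-0.621 to 4.23).

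At the threshold of the CpG ratio, the 3 members just inside were P2rx2 (0.39862), Pcdhga1 (0.39911) and Rps6ka1 (0.39996), with GFP scores of 13, 84 and 100. The 3 shared peaks just outside were at Depdc7 (0.40015), Klhl24 (0.40016) and Bivm (0.40020), with GFP scores of 37, 47 and 56.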

How the data were processed

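Peak lists of 2 CUT&RUN libraries of SYAT mESCs, 1 with a GFP antibody and 1 with a SRCAP antibody, were used as the authors deposited them. The deposited values are peak positions and a score per peak. The submitters' processing notes name STAR, Picard, MACS2, mm10 and dm6. A control library, a blacklist and the treatment of reads that map to several places were not given for CUT&RUN in the sources used here. The methods describe CUT&RUN with the antibody to SRCAP, and the assay of the GFP library was taken from its label. Read counts were not given, so depth is unknown.

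Transcripts of GENCODE vM21 and the GRCm38.p6 sequence gave start sites, CpG ratios (observed over expected), repeat-masked bases (lower case), motif words and C2H2 matches. The CpG ratio used 500 bp at the midpoint. A gene counted as a zinc finger gene with at least 3 matches of C-X2-4-C-X12-H-X3-5-H in 1 reading frame without a stop codon. Near-identical windows were at least 80% identical by edit distance, read on the strand of the gene. Percentages carry 95% Wilson intervals, differences Newcombe intervals and medians order-statistic intervals. The classes of peaks, sharing, distances, the search for a planted word and the Newcombe intervals were tested on simulated data. C2H2 matches, near-identity and the other steps were not. All steps were run in Python 3.11.15 with numpy 2.4.6, pandas 2.3.3, scipy 1.17.1, matplotlib 3.10.9 and edlib.

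The members and lists were chosen with earlier results of these data known. Named were the 12 members with the highest smaller percentile (without Gm and Rik symbols and peaks at least 50% repeat-masked), every member of the pluripotency, 2-cell and germline lists, up to 4 members of each other list, the highest member with each motif, 3 peaks on each side of the CpG threshold, and Zfp42, Srcap, Nanog, Gata3, Meis1 and Trim28. Genes named for clusters or near-identical promoters were added after their values were seen. Alternatives changed the CpG threshold and window, promoter window, overlap, score minimum, anchoring list, repeats and chromosome 8.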

Additional observations from a re-analysis of the deposited data

How the results depend on the processing

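No paired analysis was possible because there was a single library for each antibody. Over 16 settings, 105 values of 13 results were recomputed. Of these, 70 stayed within the 95% counting interval of a share or median, or within 1.5 times a count, and 35 did not. The 618 members were 894 with a CpG window of 200 bp, 487 with the narrower promoter window and 468 with the reciprocal overlap. A CpG ratio under 0.3 gave 308 members, 77.9% upstream, 71.2% sharing of CpG-rich peaks, 4.22% repeat-masked and 2.19% of genes with a member. A ratio under 0.5 gave 1058 members, sharing of 57.3% and 74.3% at CpG-poor and CpG-rich promoters and 5.61% of genes. A CpG window of 200 bp gave 79.8% upstream, 35.8% with a CpG-poor TSS and 4.29% of genes, and 1000 bp gave 69.4% and 78.5% for the first 2. A promoter window of 500 bp on either side gave 66.3% upstream, 58.0% sharing, 67.1% with a CpG-poor TSS, 1.23% repeat-masked and 3.11% of genes. A reciprocal overlap of 50% gave sharing of 41.1% and 56.7%, median GFP scores of 63.0 and 70.0, 64.3% with a CpG-poor TSS and 2.88% of genes. Keeping in each list only its upper peaks, from the median score on, gave 305 members, 69.9% sharing at CpG-rich promoters, medians of 88.0 in both groups, 64.9% with a CpG-poor TSS and 1.95% of genes. Taken from the SRCAP list, sharing was 62.3% and 69.7%. With the motifs searched at the nearest TSS, chosen after the data were seen, 11 motifs differed from CpG-poor start sites without a peak in place of 7. Leaving out repeat-masked peaks, chromosome 8 or, chosen after the data were seen, near-identical members moved none of these values beyond those limits. Near-identical members did matter for zinc finger genes, whose share fell to 6.53% of members without them from 9.55%, and for the CCAAT words against peaks with the GFP antibody alone, as the results give. CpG-poor promoters were shared less often than CpG-rich ones under each of these settings. The counts of members per gene list have no alternative. Depth is unknown and there is 1 library per antibody, so the spread between libraries could not be estimated.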
